A study of Mus musculus with 7 samples.

Results

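The FoxO, KLF, BTG and RB regulators of stem cell quiescence were examined as 10 genes, Foxo1, Foxo3, Klf2, Klf4, Klf6, Btg1, Btg2, Txnip, Rb1 and Rbl2, in haematopoietic stem cells sorted from mouse fetal liver. They were taken by name as known regulators of quiescence outside the cyclin-dependent kinase inhibitors. Every probe set that the array annotation gave to 1 of these genes alone was used, which made 22 of 22626 probe sets and 10 of 12393 measured genes. No probe set was shared between 1 of the 10 genes and another gene. The stem cells came from 3 samples of TFIIAα-βnc/nc embryos and 4 samples of wild-type embryos at embryonic day 14.5, all from crosses of TFIIAα-βnc/+ mice. The TFIIAα-βnc/nc embryos are homozygous for a form of the large TFIIA subunit that cannot be cleaved. Their samples held 2, 2 and 4 pooled littermates, and the wild-type samples held 1, 1, 4 and 3 embryos. Cells without lineage markers that carried CD150, c-Kit and Sca-1 were sorted, then sorted again, and 1 Affymetrix array was run per sample. The labels call the samples biological replicates.

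Quiescence, the resting state outside the cell cycle, protects adult blood stem cells, whereas fetal liver stem cells are known to cycle actively. FoxO transcription factors promote it when growth factor signalling through PI3K and AKT is low, because AKT holds them in the cytoplasm. KLF zinc-finger factors restrain proliferation in several cell types, BTG proteins bind the CCR4-NOT deadenylase and slow growth, Txnip binds thioredoxin, and the pocket proteins RB and p130 (encoded by Rb1 and Rbl2) hold E2F factors in check. TFIIA, the general factor altered in these mice, stabilises the TATA-binding protein on promoters.

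Because TFIIA acts beside the TATA-binding protein, the core promoters of the members are shown first. A promoter sequence was found for 9 of the 10 genes in RefSeq (build GRCm38.p6), and Rb1 had none in the table. The letters TATAA were searched on the strand of the gene with the first T between positions -40 and -20 from the annotated start. They stood in 3.52% of 32851 promoters, which include genes not measured here, and in 496 of 9887 measured genes with a promoter. Of the 9 member promoters 5 had them. The 5 are printed from position -60 to -1 with TATAA in capitals, and Foxo1, which lacks it, is printed for comparison with its paralogue Foxo3.
Foxo3 (chr10:42276696-42276755, minus strand): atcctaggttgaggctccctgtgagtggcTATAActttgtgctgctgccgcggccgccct
Foxo1 (chr3:52268277-52268336, plus strand): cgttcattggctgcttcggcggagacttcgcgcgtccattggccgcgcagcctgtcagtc
Klf2 (chr8:72319002-72319061, plus strand): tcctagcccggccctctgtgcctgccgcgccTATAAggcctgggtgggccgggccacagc
Klf4 (chr4:55532476-55532535, minus strand): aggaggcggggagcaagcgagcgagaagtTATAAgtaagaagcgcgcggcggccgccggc
Btg1 (chr10:96616941-96617000, plus strand): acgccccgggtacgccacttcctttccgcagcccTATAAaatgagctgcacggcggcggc
Txnip (chr3:96557897-96557956, plus strand): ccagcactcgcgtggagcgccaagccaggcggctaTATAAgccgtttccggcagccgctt

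The first T of TATAA lay at position -31 in Foxo3 and Klf4, -29 in Klf2, -26 in Btg1 and -25 in Txnip. The letters GTAAACA, a core bound by FoxO factors, were searched on both strands of the 250 bases before the start and stood in 2 of the 9 promoters, against 3.17% of all promoters. They are printed in capitals with the bases around them, since both genes are among the members and Txnip is a known FoxO target.
Txnip (chr3:96557824-96557854, plus strand): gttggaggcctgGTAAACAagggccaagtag
Btg1 (chr10:96616785-96616815, plus strand, match on the other strand): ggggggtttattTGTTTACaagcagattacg
The GC box letters GGGCGG, searched on both strands of the same 250 bases, stood in 8 of the 9 promoters and in 32.7% of all promoters. All promoters here include those of genes not measured, and the shares of GTAAACA and GGGCGG among measured genes alone were not counted. Of these motifs only GGGCGG and GTAAACA could overlap, by 1 base, and a match describes the sequence without showing that a factor binds there.

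Levels are given as log2 of the deposited RMA intensity, and differences as TFIIAα-βnc/nc minus wild-type on that scale. They were tested with limma, with p-values adjusted by Benjamini-Hochberg over all genes or all probe sets and a threshold of 0.05. A gene is represented by its probe set with the highest mean. In bulk RNA, fewer cells of a type and less RNA per cell cannot be told apart. Array medians were 3.69 to 3.82, and the arrays correlated pairwise at 0.966 to 0.991. The stem cell label was checked on Kit and Slamf1, the genes of c-Kit and CD150, which read 7.50 to 8.18 and 6.23 to 6.92 in TFIIAα-βnc/nc and 7.61 to 9.06 and 6.12 to 6.57 in wild-type. Ly6a, the gene of Sca-1, had no probe set of its own. Of 11 measured genes listed with the sort markers 7 differed downwards and 4 upwards, with a median of −0.15, and none passed (limma). The 2 with an unadjusted p under 0.05 were Procr, at −0.77 (SE 0.29), and Hlf, at −0.49 (SE 0.21), both lower in TFIIAα-βnc/nc with overlapping groups. Cd48, 1 of the 4 upwards, averaged 9.26 in TFIIAα-βnc/nc and 8.97 in wild-type (difference 0.30, SE 0.17). Kit and Slamf1 are genes of markers used in the sort, so their levels check the sort and are no independent check of the stem cell label. The sort as described did not select on CD48. Cd48 averaged above Kit, which averaged 7.92 in TFIIAα-βnc/nc and 8.41 in wild-type. Mecom, also listed with the sort markers, averaged 2.29 in TFIIAα-βnc/nc and 2.43 in wild-type, under the array medians. The share of cells carrying CD48 and the share that were stem cells were not tested. Transcripts of endothelial cells were high in 3 arrays. Averaged over 20 endothelial markers, the log2 level was 6.44, 6.89 and 4.30 in the TFIIAα-βnc/nc arrays and 6.59, 4.38, 4.52 and 4.38 in the wild-type arrays. Macrophage markers averaged 3.79 to 4.92 in TFIIAα-βnc/nc and 2.89 to 4.18 in wild-type, and hepatocyte markers 2.99 to 4.13 in TFIIAα-βnc/nc and 2.98 to 3.51 in wild-type. Of 18 macrophage markers 16 differed upwards and 2 downwards, with 3 higher at an unadjusted p under 0.05, against 2.12% of all genes. Of the 3, Lgmn, a lysosomal protease, differed by 1.83 (SE 0.40) without overlap, as in 3.23% of all genes. Vcam1, an adhesion molecule, differed by 2.00 (SE 0.65) and Hmox1 by 1.14 (SE 0.47), both with overlapping groups. Vcam1 read 5.17, 5.64 and 5.14 in TFIIAα-βnc/nc and 5.40, 3.18, 2.64 and 2.07 in wild-type. The 2 downwards were Cd68, at −0.53 (SE 0.46), and Fcgr1, at −0.04 (SE 0.28), and Adgre1 differed by only 0.04 (SE 0.41). Mrc1, also on the macrophage list, read 8.62, 8.66 and 4.45 in TFIIAα-βnc/nc and 9.03, 4.01, 3.20 and 3.19 in wild-type. It was highest in the 3 arrays with high endothelial markers, so the named genes do not stand for the whole list. Of 20 hepatocyte markers 18 differed upwards and 2 downwards. At an unadjusted p under 0.05, 3 were higher and 1 lower, against 2.12% and 2.53% of all genes. No marker of either list passed (limma, adjusted p at least 0.927), and the part of the sort markers and of other cells in the results on the 10 genes was not tested.

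None of the 10 genes passed the threshold between the genotypes, with adjusted p between 0.934 and 0.995 (limma). Over all 12393 genes 1 passed as lower (0.00807%) and 0 as higher, and over all probe sets 1 (0.00442%) was lower. At an unadjusted p under 0.05, 0 of the 10 genes were counted, against 2.53% of all genes lower and 2.12% higher in TFIIAα-βnc/nc. The difference was below 0 in 8 of the 10 genes and above 0 in 2, with a median of −0.17, while 51.9% of all genes were below 0 and 48.1% above, and their median was −0.01. Of the 22 probe sets 17 were below 0 and 5 above, with a median of −0.18. In 1 gene, Foxo3, all TFIIAα-βnc/nc values lay below all wild-type values, which held for 3.07% of all genes, and the reverse held for 0 of the 10. The 95% intervals of all 10 differences included 0. Their half-widths ran from 0.32 for Txnip to 1.13 for Klf2.

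**Figure D1:**
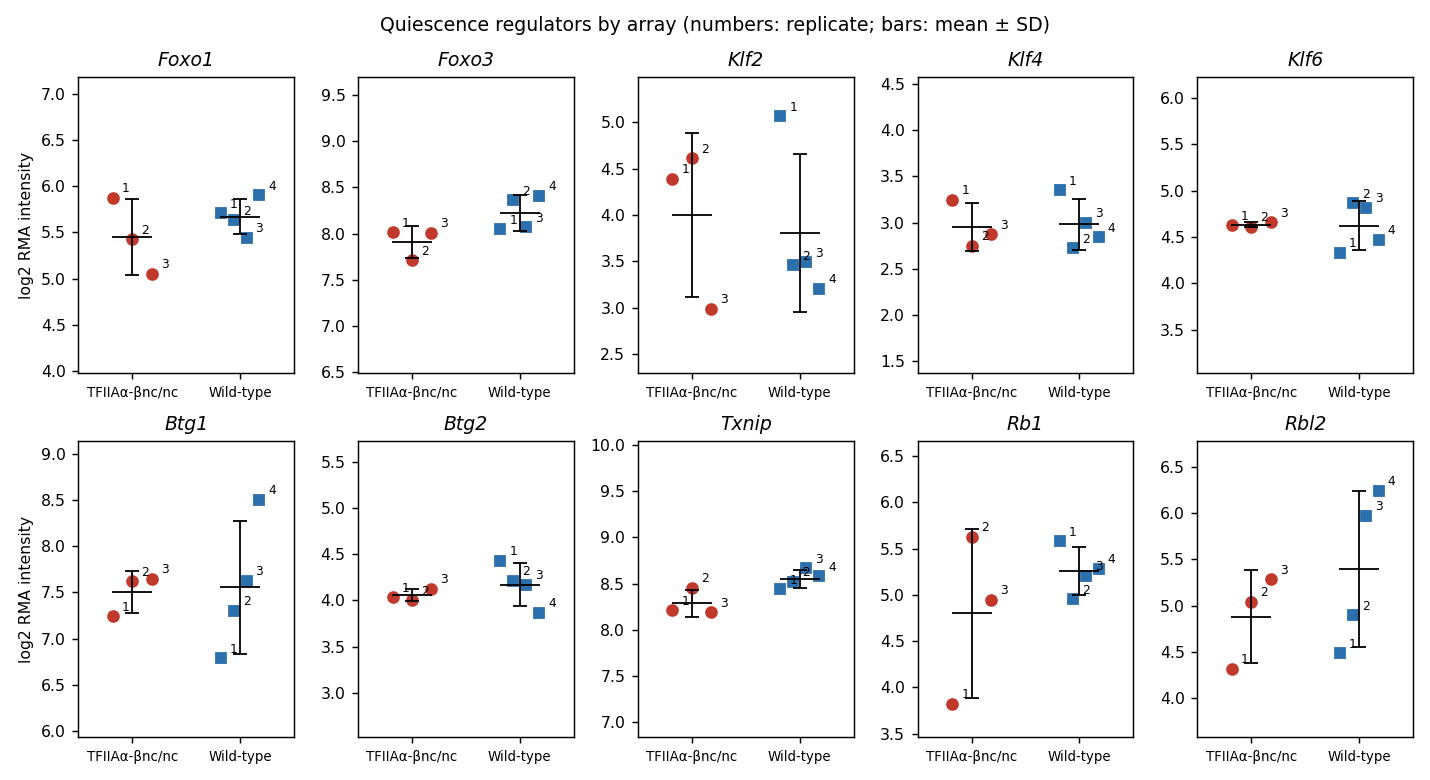
Log2 RMA intensity of each of the 10 genes in the 3 TFIIAα-βnc/nc arrays (circles) and the 4 wild-type arrays (squares), numbered by replicate, with the mean and SD of each group as bars. Each vertical axis spans the same number of log2 units. The groups overlap in every panel except Foxo3, where the highest TFIIAα-βnc/nc value, 8.02, lies just under the lowest wild-type value, 8.05.

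Foxo3 (Entrez gene 56484), the FoxO factor known to maintain blood stem cells in adult mice, read 8.02, 7.71 and 8.01 in TFIIAα-βnc/nc and 8.05, 8.36, 8.07 and 8.41 in wild-type on its brightest probe set. All 3 TFIIAα-βnc/nc arrays were below the wild-type arrays, by a gap of a few hundredths of a log2 unit at the nearest pair. The means were 7.91 ± 0.17 (SD, n = 3) and 8.22 ± 0.19 (SD, n = 4), a ratio of 0.806 (difference −0.31, SE 0.16, 95% interval −0.67 to 0.05; limma, adjusted p = 0.934). A second probe set read 6.14, 6.39 and 6.38 in TFIIAα-βnc/nc and 6.32, 6.90, 6.64 and 7.18 in wild-type. It ran the same way with overlapping groups, since wild-type replicate 1 lay under 2 of the TFIIAα-βnc/nc arrays, and its difference was −0.46 (SE 0.21; adjusted p over all probe sets 0.984). The third Foxo3 probe set was dim, at 2.28 ± 0.17 in TFIIAα-βnc/nc and 2.25 ± 0.24 in wild-type (SD, n = 3 and n = 4), and differed by 0.04.

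Foxo1 (Entrez gene 56458), its paralogue with overlapping functions in stem cells, read 5.88, 5.43 and 5.05 in TFIIAα-βnc/nc and 5.70, 5.63, 5.44 and 5.90 in wild-type. TFIIAα-βnc/nc replicate 3 was lowest and the other arrays were mixed. The difference was −0.22 (SE 0.21, 95% interval −0.69 to 0.25; limma, adjusted p = 0.938). Its probe sets did not share a direction. The others differed by 0.10, 0.23 and, for the dimmest, −0.18, with adjusted p over all probe sets of 0.984 to 0.985. The suffix of the brightest Foxo1 probe set marks probes that may match more than 1 transcript. Among other genes named in this report, the probe sets of Sesn1, Procr and Cnot7 carry the same suffix.

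Among 25 measured regulators of FoxO, of 30 listed, 14 differed upwards and 11 downwards, with a median of 0.01. None passed (limma, adjusted p at least 0.934). In each direction 1 had an unadjusted p under 0.05, against 2.12% of all genes higher and 2.53% lower. Pdpk1, the kinase that activates AKT, read 6.69, 6.66 and 6.85 in TFIIAα-βnc/nc and 5.85, 6.54, 5.43 and 6.20 in wild-type, without overlap (difference 0.73, SE 0.24). Phlpp1, a phosphatase that removes an activating phosphate from AKT, read 4.51, 4.59 and 4.90 in TFIIAα-βnc/nc and 5.12, 5.03, 5.19 and 5.06 in wild-type, also without overlap (difference −0.44, SE 0.15). Groups free of overlap in these directions were found in 3.23% and 3.07% of all genes. Sgk1, a kinase related to AKT that also phosphorylates FoxO3, read 6.29, 6.43 and 4.67 in TFIIAα-βnc/nc and 6.34, 4.45, 4.41 and 4.37 in wild-type (difference 0.91, SE 0.56). It was high in the 3 arrays with high endothelial markers, and the part of those cells in its level was not tested.

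Of 22 measured FoxO target genes, of 24 listed, 12 differed downwards and 10 upwards, with a median of −0.04, and none passed. The 3 with an unadjusted p under 0.05 were all lower, against 2.53% of all genes. Sesn1, a stress-induced inhibitor of mTORC1 signalling, read 8.41, 8.24 and 8.74 in TFIIAα-βnc/nc and 8.78, 9.00, 9.23 and 9.07 in wild-type. Every TFIIAα-βnc/nc value was below every wild-type value (difference −0.56, SE 0.17; limma, adjusted p = 0.934). Sesn3, of the same family, read 4.65, 4.90 and 5.16 in TFIIAα-βnc/nc and 5.14, 5.66, 5.56 and 5.59 in wild-type (difference −0.58, SE 0.18; adjusted p = 0.934). One pair of arrays overlapped. Ccng2, a cyclin that accompanies growth arrest, read 7.03, 6.88 and 7.17 in TFIIAα-βnc/nc and 7.64, 7.51, 7.23 and 7.68 in wild-type, without overlap (difference −0.49, SE 0.16; adjusted p = 0.934). Ulk1, a kinase that starts autophagy, read 6.05, 6.13 and 6.16 in TFIIAα-βnc/nc and 6.41, 6.36, 6.86 and 6.29 in wild-type, also without overlap (difference −0.36, SE 0.17; adjusted p = 0.934). Groups free of overlap in this direction were found in 3 of the 22 targets and in 3.07% of all genes. Sod2, a mitochondrial antioxidant enzyme, differed by 0.19 (SE 0.16). Bcl2l11, which encodes the death protein BIM, read 5.80, 5.84 and 5.37 in TFIIAα-βnc/nc and 6.02, 5.12, 3.30 and 4.50 in wild-type (difference 0.93, SE 0.52). Its 3 highest values were in the arrays with high endothelial markers, whose part in it was not tested.

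Txnip (Entrez gene 56338), the thioredoxin-interacting protein that limits glucose uptake, read 8.21, 8.45 and 8.19 in TFIIAα-βnc/nc and 8.44, 8.52, 8.67 and 8.58 in wild-type. Only TFIIAα-βnc/nc replicate 2 and wild-type replicate 1 overlapped, by about a hundredth of a log2 unit. The means were 8.29 ± 0.15 (SD, n = 3) and 8.55 ± 0.095 (SD, n = 4), a ratio of 0.832 (difference −0.27, SE 0.14, 95% interval −0.58 to 0.05; limma, adjusted p = 0.934). This was the narrowest range over arrays of any of the 10 genes, 0.48 log2 units. The other Txnip probe set was dim and variable, at 2.88, 3.98 and 3.07 in TFIIAα-βnc/nc and 3.05, 3.71, 3.24 and 3.98 in wild-type, and differed by −0.19 (SE 0.31). Of 12 measured genes of the thioredoxin system, the arrestin family and the Txnip activators, of 15 listed, 10 differed downwards and 2 upwards, with a median of −0.06. None passed, and 0 had an unadjusted p under 0.05 (limma). Txn1, the cytosolic thioredoxin that Txnip binds, differed by 0.12 (SE 0.13), Txn2, its mitochondrial counterpart, by −0.27 (SE 0.18), and Arrdc1, an arrestin relative of Txnip, by −0.27 (SE 0.18). Mlxip and Mlx, the glucose-sensing activators of Txnip, differed by −0.04 and −0.08.

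**Figure D2:**
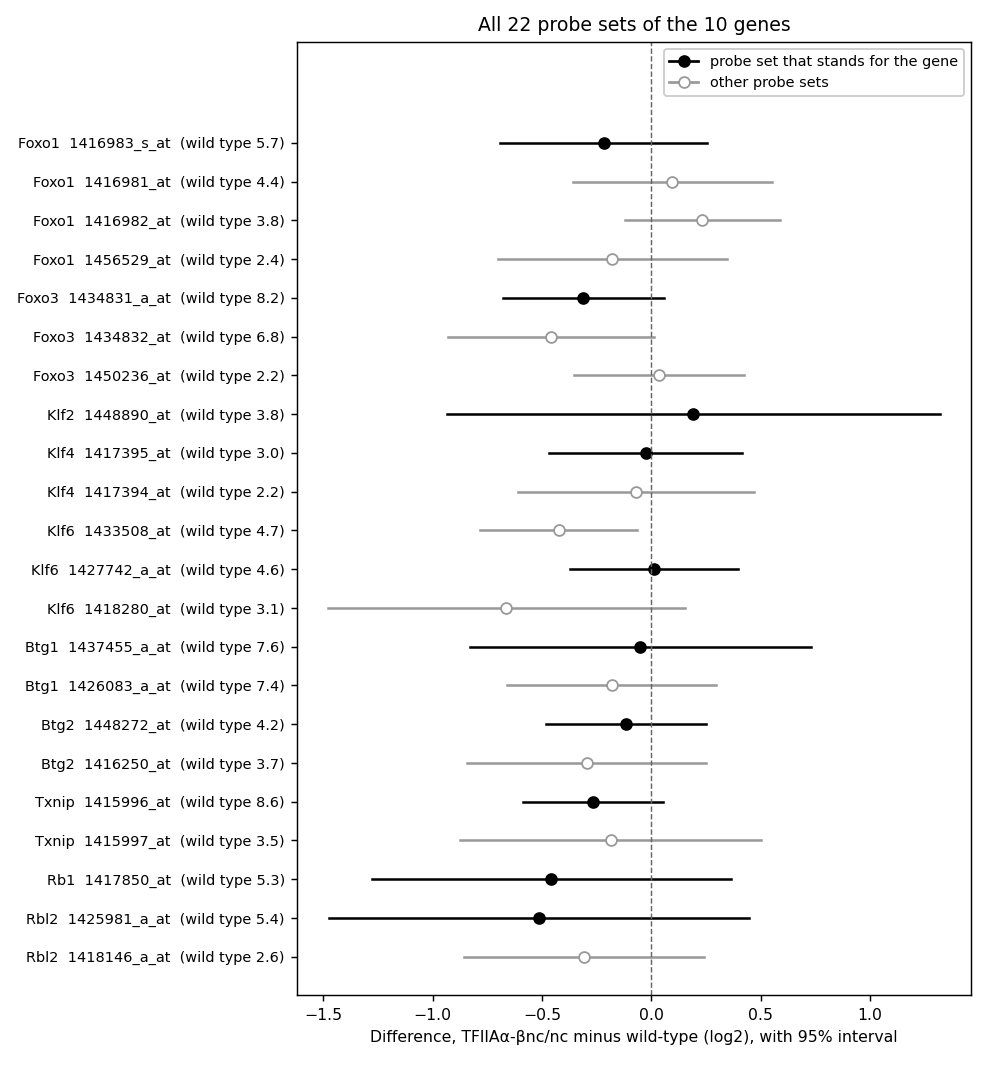
Difference between TFIIAα-βnc/nc and wild-type on the log2 scale, with its 95% interval from the fit over all probe sets, for the 22 probe sets of the 10 genes. Labels give the mean wild-type level, filled points are the probe set that stands for its gene and open points are the others. The interval of 1 probe set, of Klf6, lies wholly below 0.

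Klf2 (Entrez gene 16598), a zinc-finger factor of quiescent T cells and of endothelium under flow, varied more between arrays than any other of the 10 genes. It read 4.39, 4.62 and 2.99 in TFIIAα-βnc/nc and 5.07, 3.46, 3.49 and 3.20 in wild-type. The 3 high values were those of TFIIAα-βnc/nc replicates 1 and 2 and wild-type replicate 1, the same arrays in which endothelial markers were high. The means were 4.00 ± 0.88 (SD, n = 3) and 3.81 ± 0.85 (SD, n = 4), with a difference of 0.19 (SE 0.50; limma, adjusted p = 0.975). Of the 20 endothelial markers 16 differed upwards and 4 downwards, and 0 passed or had an unadjusted p under 0.05 (limma). The 4 downwards were Emcn, at −0.30, Tie1, at −0.19, Esam, at −0.07, and Egfl7, at −0.01. Emcn was highest in wild-type replicate 3, at 7.33, and Tie1 read 4.21 there against 3.02 in TFIIAα-βnc/nc replicate 1. The summed linear intensity of the 20 markers was 762 to 3620 in TFIIAα-βnc/nc and 882 to 2967 in wild-type. No marker had a value of zero, since RMA gives none. Given the endothelial mean as a covariate, Klf2 differed by −0.45 (SE 0.17; adjusted p = 0.937). With only the 4 arrays of low endothelial mean, 1 of them TFIIAα-βnc/nc, the difference was −0.40, a choice made after these levels were known. The lone TFIIAα-βnc/nc sample has no measured spread. Klf2 was dim in these 4 arrays, at 2.99 to 3.49, under the array medians of 3.69 to 3.82. Immediate early genes, many of them induced when tissue is dissociated, averaged 4.68, 4.72 and 4.52 in TFIIAα-βnc/nc and 4.82, 4.45, 4.43 and 4.37 in wild-type, also highest in those 3 arrays. Of these 24 genes 15 differed upwards and 9 downwards. In each direction 1 had an unadjusted p under 0.05, against 2.12% of all genes higher and 2.53% lower. With the immediate early mean as a covariate the Klf2 difference was −0.39 (SE 0.22; adjusted p = 0.765). Both means were highest in the same 3 arrays, so their parts in the Klf2 level cannot be told apart and were not tested. Without wild-type replicate 1 the Klf2 difference was 0.61, without TFIIAα-βnc/nc replicate 3 it was 0.70, and without TFIIAα-βnc/nc replicate 2 it was −0.12.

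**Figure D3:**
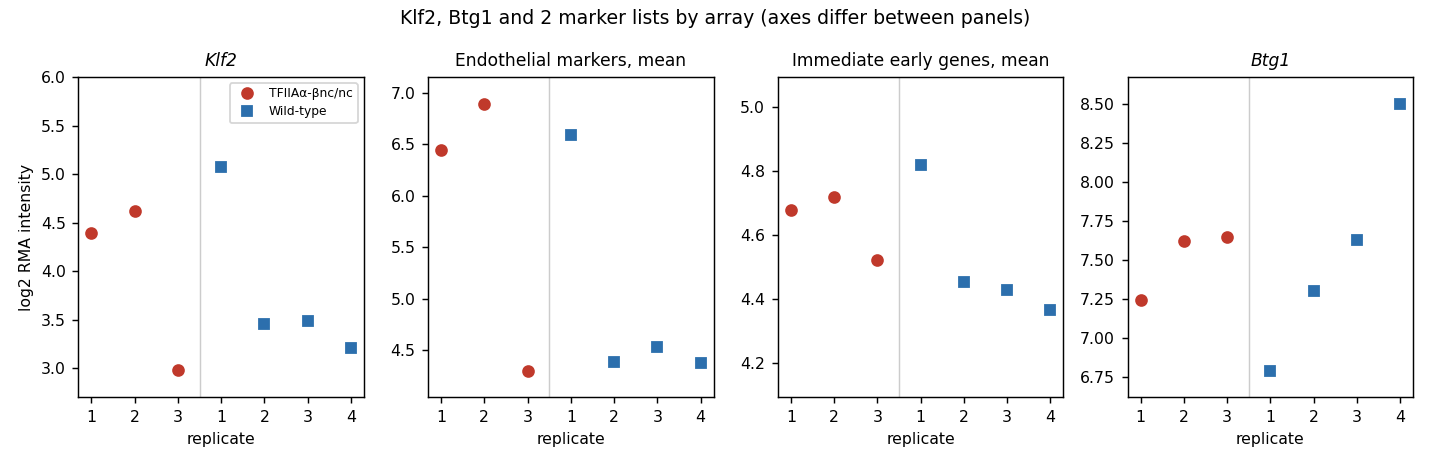
Log2 RMA intensity by replicate for Klf2, the mean of 20 endothelial markers, the mean of 24 immediate early genes and Btg1, in TFIIAα-βnc/nc (circles) and wild-type (squares), with a separate axis per panel. Klf2 and both lists are highest in TFIIAα-βnc/nc replicates 1 and 2 and wild-type replicate 1, whereas Btg1 is lowest in wild-type replicate 1, at 6.79, and highest in wild-type replicate 4, at 8.50.

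The genes with profiles closest to Klf2 over the 7 arrays, among genes with a mean level of at least 5, were Plxnd1, Robo4 and Chst15. Their mean absolute difference from the Klf2 profile, each profile centred on its own mean, was 0.17, 0.18 and 0.19 log2 units. Robo4, an endothelial guidance receptor, is 1 of the 20 markers and read 5.87, 5.94 and 4.37 in TFIIAα-βnc/nc and 6.08, 5.11, 4.86 and 5.01 in wild-type. Plxnd1, a semaphorin receptor of vessels, read 6.82, 6.96 and 5.57 in TFIIAα-βnc/nc and 7.24, 5.98, 6.14 and 6.09 in wild-type. Chst15, not on the marker list, read 5.79, 6.54 and 4.79 in TFIIAα-βnc/nc and 6.46, 4.91, 5.27 and 4.92 in wild-type.

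Klf4 (Entrez gene 16600), a factor that restrains proliferation and serves in reprogramming, was dim in every array. It read 3.25, 2.75 and 2.87 in TFIIAα-βnc/nc and 3.35, 2.73, 3.00 and 2.84 in wild-type, all under the array medians. Its difference was −0.02 (SE 0.19, 95% interval −0.46 to 0.41; limma, adjusted p = 0.991), and the other probe set differed by −0.07 (SE 0.24). At such levels a change in the transcript may not be detectable.

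Klf6 (Entrez gene 23849), a growth-restraining factor of the same family, had 3 probe sets that disagreed. The one with the highest mean read 4.62, 4.61 and 4.66 in TFIIAα-βnc/nc and 4.33, 4.87, 4.82 and 4.47 in wild-type, with the TFIIAα-βnc/nc values in the middle of the wild-type range (difference 0.01, SE 0.17; limma, adjusted p = 0.995). The second brightest read 4.17, 4.21 and 4.37 in TFIIAα-βnc/nc and 4.82, 4.41, 4.60 and 4.86 in wild-type. There all TFIIAα-βnc/nc values lay below the wild-type values, as in 2.81% of all probe sets, while the reverse held in 2.85% of all and in 0 of the 22. Its difference was −0.42 (SE 0.16; adjusted p over all probe sets 0.984), and it was the 1 of the 22 probe sets with an unadjusted p under 0.05, against 2.09% of all probe sets lower and 1.91% higher. The dimmest Klf6 probe set read 2.41, 2.45 and 2.44 in TFIIAα-βnc/nc and 3.79, 3.64, 2.09 and 2.87 in wild-type (difference −0.66, SE 0.36), where both wild-type samples of a single embryo were high. With the mean of the 3 probe sets Klf6 differed by −0.36 (adjusted p = 0.948).

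Of 13 other KLF and close SP genes measured, of 15 listed, 6 differed upwards and 7 downwards, with a median of −0.09. None passed, and 0 had an unadjusted p under 0.05 (limma). Klf7 read 5.90, 6.22 and 4.61 in TFIIAα-βnc/nc and 5.63, 4.26, 4.28 and 4.71 in wild-type (difference 0.85, SE 0.43), with its 3 highest values in the arrays of high endothelial markers. Klf13, a factor expressed in blood cells, differed by −0.20 (SE 0.14) without overlap of the groups, as in 3.07% of all genes. The dim Klf5 differed by −0.40 (SE 0.23). Klf1, the erythroid member, differed by 0.24 (SE 0.39).

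Btg1 (Entrez gene 12226), an antiproliferative partner of the deadenylase, read 7.25, 7.62 and 7.65 in TFIIAα-βnc/nc and 6.79, 7.30, 7.63 and 8.50 in wild-type. The TFIIAα-βnc/nc arrays lay inside the wild-type range, and the wild-type spread, 0.72 against 0.22 in TFIIAα-βnc/nc (SD, n = 4 and n = 3), came from replicates 1 and 4. The difference was −0.05 (SE 0.35, 95% interval −0.83 to 0.73; limma, adjusted p = 0.991). Without wild-type replicate 4 it was 0.27, and without wild-type replicate 1 it was −0.31. Its second probe set read 6.99, 7.29 and 7.35 in TFIIAα-βnc/nc and 7.35, 7.05, 7.26 and 7.89 in wild-type (difference −0.18, SE 0.21). Wild-type replicate 4 was highest on both probe sets, whereas replicate 1 was lowest only on the first. The genes closest to Btg1 in profile were Tspyl1, Acsl4 and Sp3, at mean absolute differences of 0.07, 0.08 and 0.11 log2 units. Tspyl1 read 6.47, 6.70 and 6.72 in TFIIAα-βnc/nc and 5.62, 6.39, 6.67 and 7.59 in wild-type.

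Btg2 (Entrez gene 12227), the p53-inducible relative of Btg1, was near the array medians. It read 4.03, 4.00 and 4.13 in TFIIAα-βnc/nc and 4.43, 4.21, 4.17 and 3.87 in wild-type (difference −0.11, SE 0.16, 95% interval −0.48 to 0.25; limma, adjusted p = 0.953). Wild-type replicate 4, highest for Btg1, was lowest for Btg2. The other Btg2 probe set read 3.46, 3.49 and 3.33 in TFIIAα-βnc/nc and 4.40, 3.36, 3.44 and 3.68 in wild-type (difference −0.30, SE 0.24), where the single-embryo wild-type replicate 1 stood above the rest. Of 13 measured genes among the other BTG and TOB genes and the CCR4-NOT deadenylase, of 18 listed, 7 differed upwards and 6 downwards, with a median of 0.01, and none passed. Prmt1, an arginine methyltransferase that binds Btg1 and Btg2, read 8.80, 8.86 and 8.72 in TFIIAα-βnc/nc, above all wild-type arrays, which averaged 8.35 ± 0.16 (SD, n = 4). Groups free of overlap in this direction were found in 3.23% of all genes. Prmt1 had the 1 unadjusted p under 0.05 in the list, against 2.12% of all genes higher and 2.53% lower (difference 0.44, SE 0.15; limma, adjusted p = 0.934). Tob1 differed by −0.30 (SE 0.30), and Cnot2 and Cnot7, subunits of the deadenylase, by −0.13 and 0.01.

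Rb1 (Entrez gene 19645), the retinoblastoma protein gene, was measured by 1 probe set at 3.82, 5.63 and 4.95 in TFIIAα-βnc/nc and 5.58, 4.95, 5.21 and 5.28 in wild-type. TFIIAα-βnc/nc replicate 1 was far below the other arrays and replicate 2 was the highest of all. The means were 4.80 ± 0.91 (SD, n = 3) and 5.26 ± 0.26 (SD, n = 4), a ratio of 0.729 (difference −0.46, SE 0.36, 95% interval −1.28 to 0.36; limma, adjusted p = 0.934). Without TFIIAα-βnc/nc replicate 1 the difference was 0.03, so its direction rested on that array. Tex2, Zdhhc7 and Jak1, a cytokine receptor kinase, were closest in profile, at mean absolute differences of 0.16, 0.23 and 0.26 log2 units.

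Rbl2 (Entrez gene 19651), which encodes the pocket protein p130 of resting cells, read 4.32, 5.05 and 5.29 in TFIIAα-βnc/nc and 4.49, 4.90, 5.97 and 6.24 in wild-type. Both wild-type samples of a single embryo lay within the TFIIAα-βnc/nc range and both pooled wild-type samples lay above it. The means were 4.88 ± 0.50 (SD, n = 3) and 5.40 ± 0.84 (SD, n = 4), a ratio of 0.700, the lowest among the 10 genes (difference −0.52, SE 0.43, 95% interval −1.47 to 0.44; limma, adjusted p = 0.934). With pooled samples only, which leaves 3 against 2, the difference was −1.22 (SE 0.29; adjusted p = 0.216), and adjusted for the number of embryos it was −0.70 (SE 0.26; adjusted p = 0.564). Adjusted for the endothelial mean it was −0.18 (SE 0.37; adjusted p = 0.963), and with the immediate early mean −0.12 (SE 0.31; adjusted p = 0.948). The part of pooling and of other cells in this difference was not tested. The other Rbl2 probe set was dim, at 2.10, 2.66 and 2.09 in TFIIAα-βnc/nc and 2.67, 2.03, 2.72 and 2.96 in wild-type, and differed by −0.31 (SE 0.24). Cebpb, Msmo1 and Psmb7 were closest to Rbl2 in profile, at mean absolute differences of 0.15, 0.16 and 0.16 log2 units. Cebpb, a myeloid transcription factor, averaged 5.70 ± 0.52 in TFIIAα-βnc/nc and 6.43 ± 0.72 in wild-type (SD, n = 3 and n = 4).

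Of 15 measured RB partners, E2F factors and subunits of the DREAM complex, which joins p130 to E2F in resting cells, of 20 listed, 9 differed upwards and 6 downwards, with a median of 0.02. None passed, and 0 had an unadjusted p under 0.05 (limma). Lin37, a DREAM subunit, read 3.47, 3.32 and 3.63 in TFIIAα-βnc/nc and 3.57, 3.72, 4.99 and 4.43 in wild-type (difference −0.71, SE 0.32; adjusted p = 0.934). E2f8, a repressor of the family, differed by 0.23 (SE 0.14) without overlap of the groups, as in 3.23% of all genes. The dim E2f3, an activator, differed by 0.24 (SE 0.19). Rbl1, the third pocket protein gene, which is active in cycling cells, read 7.94, 8.03 and 8.11 in TFIIAα-βnc/nc and 7.84, 8.02, 7.57 and 8.03 in wild-type (difference 0.16, SE 0.16).

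**Figure D4:**
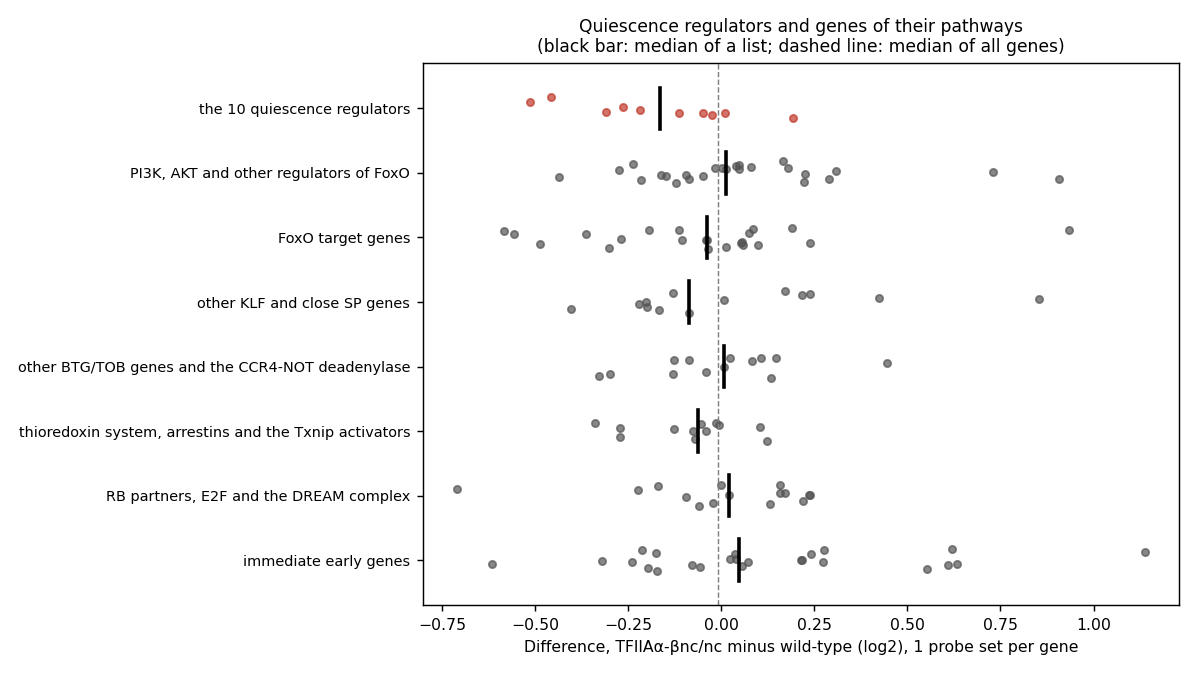
Difference between TFIIAα-βnc/nc and wild-type on the log2 scale for each of the 10 quiescence regulators and for the genes of their pathways, 1 point per gene. Black bars are list medians, from −0.17 for the 10 regulators to 0.05 for immediate early genes, and the dashed line is the median of all genes, −0.01. No point passed the adjusted threshold.

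Across arrays the 10 genes did not move as a block. The number of genes below the wild-type mean was 6, 7 and 8 in TFIIAα-βnc/nc replicates 1, 2 and 3. Among the wild-type arrays, replicate 4 was highest in 4 genes and lowest in 2, and replicate 1 was highest in 4 and lowest in 5.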

How the data were processed

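RNA of 7 sorted samples was amplified from the 3' end and hybridised to 1 array each. The values the authors deposited are probe set intensities, for which the submitters' processing notes name RMA and Affymetrix Expression Console, with no version. The values were on a linear scale, so log2 was taken with no pseudocount. Of 22690 probe sets 64 controls were left out. Names came from the platform annotation, updated by Entrez identifier with RefSeq GRCm38.p6, which matched 12369 of 12393 genes. The annotation named 1 gene for 20380 probe sets, more than 1 for 691 and none for 1555. Each gene took the probe set with the highest mean among those naming it alone, and no filter on dim values was applied, so all 10 members were tested.

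The genotypes were compared on all 7 arrays in R 4.3.3 by limma 3.58.1 (lmFit, then eBayes), over 12393 genes and again over 22626 probe sets, 2-sided, without covariates. The fit was tested on simulated data. Alternatives were other probe set choices, level filters, normalizations, array weights, covariates, the replicate block and each array left out. The sex measure, 1 of the covariates, was the mean log2 level of 3 Y-linked genes minus that of Xist on each array. It was taken from the arrays, not from recorded sex, and pools may mix the sexes. Plots used matplotlib 3.10.9 in Python 3.11.15. Members and lists were chosen with earlier results of these data known. Named genes were the members, the 3 of smallest p in each pathway list, and the 3 closest profiles of members ranging over at least 1 log2 unit. Any other list gene was picked with its value known. Scan dates and detection calls were not used here, so array batches were not tested. The number of arrays limits the precision.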

Additional observations from a re-analysis of the deposited data

Results flagged for a closer look

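Among the 22 probe sets, 2 had a wild-type sample far from the other wild-type samples, both in replicate 1, a single embryo with high endothelial markers. Klf2 read 5.07 there, against 3.20 to 3.49 in the other wild-type arrays, a gap of 0.848 of the group's range. Foxo1 read 4.72 there on its second brightest probe set against 4.22 to 4.28 in the others, a gap of 0.868 of the range. Chance alone flags about 1 in 20 groups, and the TFIIAα-βnc/nc group of 3 was too small for this check. On the same Foxo1 probe set TFIIAα-βnc/nc replicates 1, 2 and 3 read 4.71, 4.62 and 4.09.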

How the results depend on the processing

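No member gene passed the threshold in any of 210 recomputations over the alternatives and the left-out arrays, where adjusted p was at least 0.216. Foxo3, Txnip and Rbl2 were lower in TFIIAα-βnc/nc in all of them, Foxo3 by −0.46 to −0.21, Txnip by −0.40 to −0.19 and Rbl2 by −1.22 to −0.12. The count of genes past the threshold was 1, and it was 0 among genes above the median level or at log2 6 or more on at least 3 arrays. It was 2 with the number of embryos, 2 with the sex measure, 2 with only the arrays of low endothelial mean (a setting chosen after seeing the data), 3 with pooled samples only, and 1 to 3 over the left-out arrays, with 3 without wild-type replicate 1. Over probe sets it was 1 to 2 with an array left out. The other 7 members changed sign under at least 1 setting. Taking the most variable probe set by interquartile range, Foxo1 was 0.10 and Klf6 −0.66, and with the mean of all probe sets Klf6 was −0.36. Klf6 was −0.021 with quantile normalization, −0.058 with array weights, −0.0050 with the number of embryos, −0.021 with the sex measure, −0.013 with pooled samples and −0.058 with low endothelial arrays. Klf4 was 0.00090 with cyclic loess, 0.035 with pooled samples and 0.016 with low endothelial arrays, and Btg2 was 0.019 with the sex measure, 0.036 with pooled samples and 0.045 with low endothelial arrays. Klf2 was −0.45 with the endothelial mean, −0.39 with the immediate early mean and −0.40 with low endothelial arrays. Btg1 was 0.029 with array weights, 0.19 with the endothelial mean and 0.27 with the immediate early mean. Over left-out arrays Klf2 ran from −0.12 to 0.70, Btg1 from −0.31 to 0.27, Rb1 from −0.87 to 0.031, Klf4 from −0.17 to 0.10 and Klf6 from −0.087 to 0.092. The second Txnip probe set ran from −0.52 to 0.031, the second Foxo1 probe set from −0.023 to 0.29, the dim Foxo3 probe set from −0.063 to 0.11 and the dim Klf4 probe set from −0.24 to 0.13. The causes were not tested.

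The labels do not say that replicate numbers pair the samples. Deviations of same-numbered arrays from their group means correlated at 0.38, −0.19 and 0.11 over genes. Different-numbered arrays ran from −0.55 to 0.38, a range that holds the same-numbered values, so the correlations cannot settle whether samples were paired. With the replicate block 1 gene and 1 probe set passed, Klf2 was −0.0070, Klf6 −0.040 and Btg1 0.27.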

Other observations

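Across the array, 496 measured genes had TATAA in the same promoter window. Of these 297 were lower in TFIIAα-βnc/nc, with a median difference of −0.04, against 5118 of 9887 measured genes with a promoter in the table and a median of −0.01. Single immediate early genes differed both ways. Egr1, a factor that also maintains stem cell quiescence in mice, differed by 1.14, Socs3, an inhibitor of cytokine signalling, by 0.62, and Junb, an AP-1 subunit, by −0.62, and none passed (limma, adjusted p = 0.934 each). Egr1 read 5.81, 5.65 and 5.08 in TFIIAα-βnc/nc and 5.90, 4.36, 3.79 and 3.44 in wild-type, and Socs3 read 4.65, 4.41 and 3.81 in TFIIAα-βnc/nc and 3.98, 3.68, 3.51 and 3.52 in wild-type. Both were highest in TFIIAα-βnc/nc replicates 1 and 2 and wild-type replicate 1, the arrays with high endothelial markers, whose part was not tested.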
